A study of Mus musculus with 2 samples.

Results

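Lilrb4a, Lilr4b, Pirb, Sirpa, Cd300a, Clec12a and Clec4a2 encode paired immunoglobulin-like and C-type lectin receptors of myeloid cells, and Ptpn6 encodes the phosphatase that most of them recruit. These 8 genes were chosen by symbol, with their expected counts and TPM in these same libraries already known, and all 8 symbols matched 1 gene each among 55536 mouse genes. Their levels are therefore a description and were not tested. The RNA came from the nucleoplasm, the nuclear contents outside the chromatin pellet, of bone-marrow-derived macrophages from C57BL/6J mice. The cells had received 100 ng/ml lipid A, the TLR4-binding anchor of bacterial lipopolysaccharide, for 20 min, so there is 1 group, and no unstimulated cells were analysed here. After ribosomal RNA was removed, 2 libraries were sequenced, replicate 1 from 1000 ng and replicate 2 from 500 ng of RNA, so the replicates also differ in input. Both libraries carry the same donor identifier, and the labels do not say whether they came from separate cultures or animals, nor give the animals' age and sex. The spread between them may therefore be technical.

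Inhibitory receptors of this kind carry ITIMs, short tyrosine motifs in the cytoplasmic tail. Once a Src-family kinase has phosphorylated the motif, it recruits SHP-1 (encoded by Ptpn6), SHP-2 or SHIP-1, which dampen signals from activating receptors that pair with the ITAM adaptors FcR gamma or DAP12. Many of these receptors are encoded beside close activating or tail-less copies of themselves, which is what "paired" refers to. In macrophages they set the threshold for phagocytosis, cytokine release and responses to damaged cells.

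The gene tables held 18194818 counts in replicate 1 and 18667509 counts in replicate 2. The label of the cells was checked against marker genes in the first quantification. All 10 macrophage markers reached 1 TPM in both libraries, and their summed level was 3745 TPM in replicate 1 and 3429 TPM in replicate 2. Of 39 markers of neutrophils, B cells, T and NK cells, dendritic cells, mast cells and basophils, erythroid cells and stromal cells, only the dendritic-cell gene Zbtb46 reached 1 TPM in both, at 1.19 and 1.36 TPM. The summed level of each of these 7 lists was at most 3.28 TPM in either library, and Ly6g, Pax5, Cd3e and Tpsb2 were at 0 counts in both. In a second quantification that the authors also deposited, all 10 macrophage markers again reached 1 TPM in both, with sums of 1413 and 2402 TPM. Zbtb46 did so at 1.02 and 1.75 TPM, and so did 3 more of the 39, the T-cell genes Cd3d (2.90 and 9.43 TPM) and Cd8a (1.03 and 1.60 TPM) and the dendritic-cell gene Siglech (1.03 and 1.32 TPM). The highest of the 7 sums there was that of T and NK cells, at 4.01 and 11.0 TPM. The first quantification gave Cd3d 1 count in each library. Intervals given here cover counting error only.

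Lilrb4a and Lilr4b are neighbours on chromosome 10 and near copies of each other. Lilrb4a (chr10:51490956-51496611, plus strand, mm10) encodes gp49B, an ITIM receptor that binds the integrin alphav beta3, and Lilr4b (chr10:51480632-51486703, plus strand) encodes gp49A, a relative without an inhibitory tail. Another annotated gene, Gm49339, spans both (chr10:51480612-51496613, plus strand) and joins the first exon of Lilr4b to the later exons of Lilrb4a. Gm49339 was named after its values were seen. The first coding bases of 1 transcript of each gene are shown because they show how little separates the 3 genes at their start. Each stretch joins 34 coding bases of exon 1 to the 36 bases of exon 2, and the capital marks the base at which Lilrb4a and Lilr4b differ.
Gm49339-203: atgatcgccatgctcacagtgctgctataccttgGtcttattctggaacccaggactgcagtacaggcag
Lilrb4a-201: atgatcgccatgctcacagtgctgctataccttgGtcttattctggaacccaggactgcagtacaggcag
Lilr4b-201: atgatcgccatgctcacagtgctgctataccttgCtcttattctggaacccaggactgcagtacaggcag
The stretch of Gm49339-203 lies at chr10:51480720-51480753 and chr10:51491197-51491232, that of Lilrb4a-201 at chr10:51491018-51491051 and chr10:51491197-51491232, and that of Lilr4b-201 at chr10:51480720-51480753 and chr10:51480906-51480941. Counting from 1 at the first base of the start codon, the only difference between Lilrb4a-201 and Lilr4b-201 in these 70 bases was G35C, with the Lilrb4a base given first, and it is the first base of exon 2. Gm49339-203 and Lilrb4a-201 were identical over the whole stretch.

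Along the rest of these transcripts the likeness continued. All 1381 bases of Lilrb4a-201, the main coding transcript of Lilrb4a, lay in 1 unbroken run inside Gm49339-203, which is 60 bases longer. The coding transcript Lilrb4a-212, of 1279 bases, lay whole inside Gm49339-201. A read from the body of either coding transcript therefore has a perfect match in Gm49339. Between Lilrb4a-201 and Lilr4b-201 the coding sequences had 96.0% identical bases over 907 aligned positions, and the longest run shared by the 2 transcripts was 241 bases.

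The introns of the pair that were compared, 2, 3 and 4, had 97.5%, 96.5% and 96.6% identical bases. Intron 4, which follows a 303-base exon in both genes, was 1006 bases in Lilrb4a-201 and 999 bases in Lilr4b-201. Its 2 ends are shown because much of the RNA of both genes was assigned to transcripts that keep introns. Each stretch has 30 bases on either side of the exon boundary, and the capitals mark the first and last 2 bases of the intron.
Lilrb4a-209, intron 4 donor, chr10:51492134-51492193: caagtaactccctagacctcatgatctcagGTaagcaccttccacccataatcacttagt
Lilr4b-206, intron 4 donor, chr10:51481840-51481899: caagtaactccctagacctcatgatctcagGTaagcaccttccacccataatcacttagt
Lilrb4a-209, intron 4 acceptor, chr10:51493140-51493199: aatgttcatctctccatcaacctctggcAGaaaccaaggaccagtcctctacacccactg
Lilr4b-206, intron 4 acceptor, chr10:51482839-51482898: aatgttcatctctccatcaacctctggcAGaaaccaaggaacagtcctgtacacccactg
The donor stretches of the 2 genes were identical in 60 of 60 bases and the acceptor stretches in 58 of 60, with both differences in the exon. Both genes have the canonical GT and AG ends there.

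How far each gene can be told from others was measured by its 31-base words, that is, all distinct stretches of 31 bases in its annotated transcripts. Of the words of Lilrb4a, 55.7% also occurred on the same strand in another gene, 39.1% in Lilr4b and 35.0% in Gm49339. For Lilr4b, 37.2% were shared, nearly all of them with Lilrb4a. Pirb shared 43.8% of its words, with Gm14548 (23.7%), Lilra6 (23.1%) and Pira2 (23.1%) the leading partners, the last of which encodes an activating PIR-A receptor. Clec4a2 shared 10.3%, mostly with Clec4a4 and Clec4b1 of the same lectin cluster, and Cd300a shared 7.51%, of which 2.71% of its words lay in Cd300c2. Clec12a shared 1.10%, Sirpa shared 0.0392% and Ptpn6 none on the same strand, so the counts of these 3 genes rest almost wholly on their own sequence. Antisense genes also overlap members: Gm40645, opposite Lilrb4a, had 15.0 and 22.0 counts, and Gm20531, opposite Ptpn6, had 11.4 and 16.3 counts. Whether the counting used strand is not stated, so sense and antisense reads may be mixed there.

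By whole-gene level, which counts transcripts of every class, the 2 gp49 genes were among the highest protein-coding genes of the nucleoplasm. Most of their counts lay on transcripts that keep introns, as given below. Lilrb4a had 50295 counts in replicate 1 and 48729 in replicate 2. That was 1372 and 1197 TPM, a unit that divides counts by transcript length and scales each table to the same total, with a mean of 1284 ± 124 TPM (SD, n = 2) and rank 6 among 22015 nuclear-encoded protein-coding genes. Lilr4b had 62730 and 58710 counts, or 1328 and 1118 TPM, with a mean of 1223 ± 148 TPM (SD, n = 2) and rank 8. Replicate 1 was the higher library for both. Lilrb4a was above Lilr4b in TPM in each library, but by less than either gene differed between the libraries. Lilrb4a took 44.5% of the pair's counts in replicate 1 and 45.4% in replicate 2, but 50.8% and 51.7% of its TPM, so which of the pair is higher depends on the unit. The sum does not depend on how reads were divided between the 2 genes, and was 113025 counts in replicate 1 and 107439 in replicate 2. Gm49339 had 2242 and 3311 counts more, or 96.6 and 114 TPM.

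Sirpa, which encodes the receptor for the "don't eat me" signal CD47 (chr2:129592835-129632228, plus strand), had 37600 and 30407 counts. Its TPM was 783 in replicate 1 and 460 in replicate 2, with a mean of 622 ± 228 (SD, n = 2) and rank 22. It was below both gp49 genes in each library. Pirb (chr7:3711409-3720391, minus strand), a receptor for MHC class I molecules, had 16356 and 16051 counts, 293 and 239 TPM and rank 85, with a mean of 266 ± 38.1 TPM (SD, n = 2). Sirpa and Pirb did not overlap in level. In the second quantification Lilrb4a had 621 and 1218 TPM, Lilr4b 551 and 870 TPM, Sirpa 478 and 453 TPM and Pirb 113 and 170 TPM. There replicate 2 was the higher library for all but Sirpa, while the order of the means, from Lilrb4a to Pirb, was as in the first quantification.

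The lectin receptors and Cd300a were lower. Clec12a (chr6:129342691-129365303, plus strand), which senses uric acid crystals, had 4076 and 4762 counts and 90.9 and 93.5 TPM, with a mean of 92.2 ± 1.84 TPM (SD, n = 2). Cd300a (chr11:114890041-114904654, plus strand), which binds phospholipids exposed on dying cells, had 6192 and 7564 counts and 75.7 and 75.2 TPM, with a mean of 75.5 ± 0.403 TPM (SD, n = 2). Clec12a was above Cd300a by more than their spread in this quantification, although Cd300a had more counts. The effective length, by which TPM divides, was 4304 bases for Cd300a and 2360 bases for Clec12a in replicate 1. The second quantification turned the order round, with Cd300a at 44.3 and 81.0 TPM and Clec12a at 41.0 and 73.5 TPM. Clec4a2 (chr6:123106428-123143999, plus strand), which encodes the ITIM lectin DCIR, was the lowest of the 8, with 189 and 235 counts and 10.4 and 7.65 TPM, a mean of 9.04 ± 1.97 (SD, n = 2). Ptpn6 (chr6:124720707-124738714, minus strand) stood between, with 1341 and 1058 counts and 37.5 and 24.3 TPM, a mean of 30.9 ± 9.34 (SD, n = 2) and rank 1809. The posterior-mean TPM that the authors also deposited put Ptpn6 at 64.9 and 42.4.

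**Figure D1:**
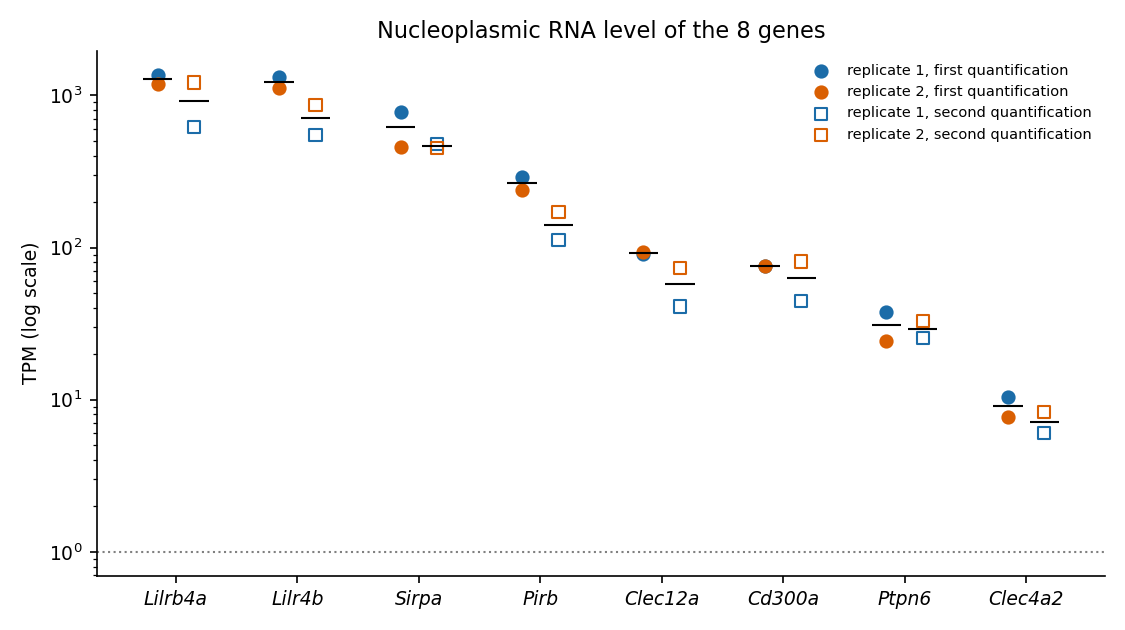
TPM (log axis) of the 8 genes in each library, with filled circles for the first quantification, open squares for the second and short lines for the mean of the 2 libraries; the dotted line marks 1 TPM. The 2 gp49 genes lie near the top in both, at 1197 to 1372 TPM (Lilrb4a) and 1118 to 1328 TPM (Lilr4b) in the first quantification, and Clec4a2 is lowest at 7.65 to 10.4 TPM.

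All 8 genes reached 1 TPM in both libraries, against 44.9% of protein-coding genes. Since the genes were chosen with their levels known, nothing is read from that count. The median level of the 8 was 192 TPM in replicate 1 and 166 TPM in replicate 2, against 0.59 and 0.48 TPM over all protein-coding genes. Together they took 0.983% of all counts in replicate 1 and 0.897% in replicate 2.

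The libraries were set against each other by the log2 ratio of scaled counts, replicate 2 over replicate 1, with a 95% counting interval. None of the 8 genes was past 2-fold with an interval clear of 0 in either direction. Over all 15557 genes compared, 4.36% were over 2-fold higher in replicate 2 and 3.67% over 2-fold lower. At shares this low, none of 8 does not set these genes apart from the others. With 1 library a side there is no test, and these ratios compare 2 libraries and not 2 conditions. The largest ratio, 0.37 (interval 0.091 to 0.66), was that of Clec4a2, the least abundant of the 8, followed by Cd300a at 0.35 (0.30 to 0.40). Clec12a, at 0.28, was also higher in replicate 2, while Sirpa, at -0.25, and Ptpn6, at -0.28, were lower in replicate 2.

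The gp49 genes and Pirb hardly differed between the libraries. Their log2 ratios were 0.014 for Lilrb4a, -0.036 for Lilr4b and 0.032 for Pirb, and other scalings turned the sign for Lilrb4a and Pirb. In all, 4 of 8 intervals lay above 0 and 3 of 8 below, against 24.5% of all genes above and 25.6% below. Whether an interval clears 0 depends on a gene's counts as well as on its ratio. The intervals of Lilr4b and Pirb cleared 0 at the small ratios just given. These shares therefore do not set the 8 genes apart from the others. The median log2 ratio of the 8 was 0.023, against 0.0030 over all genes compared, whose central 50% ran from -0.30 to 0.31.

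On the TPM scale the picture moved as a whole. The median log2 TPM ratio was -0.35 over all genes and -0.27 over the 8, so TPM values were generally lower in replicate 2. Furthest below that shift were Sirpa, at -0.77, and Ptpn6, at -0.62, and furthest above it Clec12a, at 0.041, and Cd300a, at -0.011. The effective length differed most for Clec4a2, with 954 bases in replicate 1 and 1327 in replicate 2, and for Sirpa, with 2528 and 2855 bases. It was lower in replicate 2 for Lilrb4a (1930 and 1759 bases), Lilr4b (2487 and 2269 bases) and Clec12a (2360 and 2200 bases). The TPM ratios of these genes carry that difference between estimated isoform mixtures, and their count ratios do not.

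**Figure D2:**
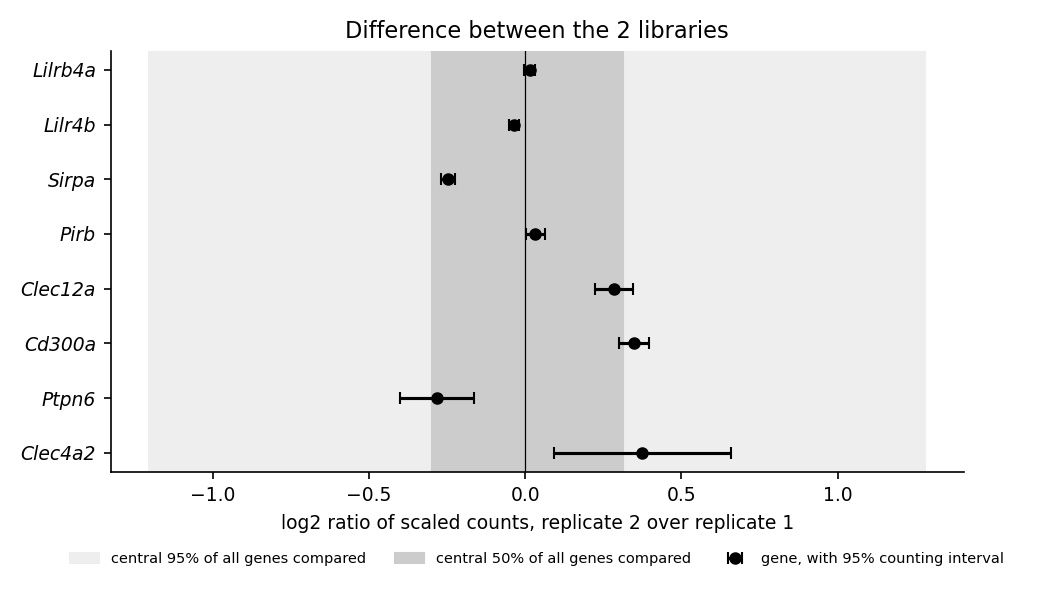
Log2 ratio of scaled counts, replicate 2 over replicate 1, for each of the 8 genes in order of level, with 95% counting intervals. The dark band holds the central 50% of all 15557 genes compared (-0.30 to 0.31) and the light band the central 95% (-1.20 to 1.28). Cd300a (0.35) and Clec4a2 (0.37) lie just outside the dark band and the other 6 inside it.

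The transcripts behind these levels differed sharply among the 8 genes. In GENCODE, a transcript is classed as retained intron when it keeps sequence that other transcripts of the gene splice out and has no coding frame of its own. Such transcripts took 99.1% of the counts of Lilrb4a in replicate 1 and 99.5% in replicate 2. For Lilr4b they took 91.0% and 88.6%, and for Pirb 75.1% and 73.5%. Clec12a was split almost evenly, with 51.6% and 44.3%. Sirpa, at 4.22% and 2.07%, and Ptpn6, at 0.835% and 0.493%, were nearly free of them. Cd300a and Clec4a2 have no such transcript annotated, so the quantification could assign them none.

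Of the 6 genes with such a transcript, 3 (Lilrb4a, Lilr4b and Pirb) had over 50% of counts on them in both libraries, against 14.1% of 6517 genes that have one and average at least 1 TPM. The median share over those genes was 19.3% in replicate 1 and 20.0% in replicate 2. Ranked by the mean number of counts on retained-intron transcripts, Lilr4b was 1 and Lilrb4a 2 of 9421 genes, Pirb was 10, Clec12a 173 and Sirpa 390. This rank follows the level of a gene as well as its share, and the levels were known when the genes were chosen. In the second quantification the mean share was 99.7% for Lilrb4a, 91.5% for Lilr4b, 77.8% for Pirb and 54.5% for Clec12a.

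**Figure D3:**
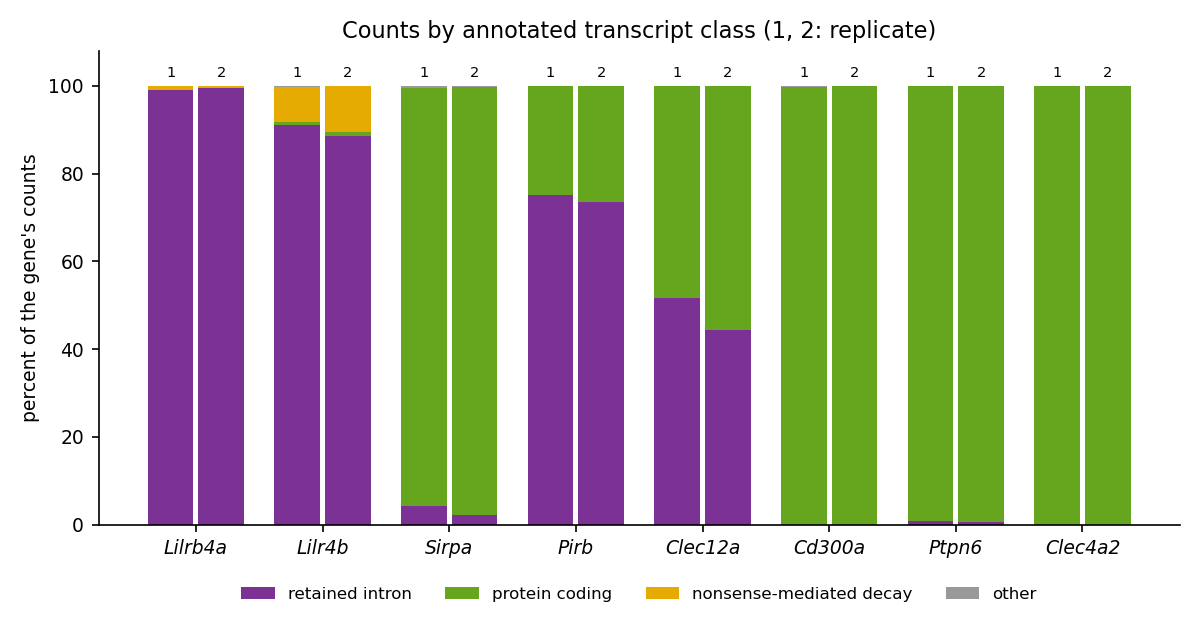
Percent of each gene's counts by annotated transcript class, with the left bar of each pair for replicate 1 and the right bar for replicate 2. Retained-intron transcripts fill nearly the whole bar for Lilrb4a (99.1% and 99.5%), most of it for Lilr4b and Pirb, near even parts for Clec12a, and little or none for the other 4.

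Counted by coding transcripts alone, the order of the genes was another one. Sirpa came first, with 544 TPM in replicate 1 and 382 TPM in replicate 2 on its 9 coding transcripts. Cd300a followed with 73.3 and 73.4 TPM, then Pirb with 59.3 and 50.7 TPM and Clec12a with 45.3 and 49.9 TPM. Ptpn6 had 34.6 and 23.2 TPM and Clec4a2 10.4 and 7.65 TPM. Lilr4b, second of the 8 by its whole level, had 20.8 and 21.02 TPM on coding transcripts. Lilrb4a, first of the 8 by its whole level, had 0 TPM in replicate 1 and 0.77 TPM in replicate 2 on its 4 coding transcripts, which is 0 and 2.94 counts of 50295 and 48729. In the second quantification Sirpa (209 and 282 TPM) and Cd300a (29.0 and 59.8 TPM) again came first by coding transcripts. Behind them Pirb (18.6 and 33.2 TPM), Clec12a (17.9 and 33.5 TPM), Ptpn6 (19.43 and 29.97 TPM) and Lilr4b (17.0 and 32.1 TPM) lay close together there, and their order differed between the libraries. Clec4a2 had 6.01 and 8.28 TPM, and Lilrb4a had 0 and 4.04 TPM, or 0 and 149.8 counts.

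That near absence has to be read beside Gm49339. The coding transcripts of Gm49339, which contain Lilrb4a-201 and Lilrb4a-212 whole, had 92.5 TPM in replicate 1 and 113 TPM in replicate 2, or 94.3% and 97.8% of that gene's counts. The sequences do not show whether those reads came from Lilrb4a or from a transcript that starts in Lilr4b. With Gm49339 counted into Lilrb4a, retained-intron transcripts took 94.9% of the counts in replicate 1 and 93.2% in replicate 2.

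Which transcripts led also shows what kind of sequence was counted. For Lilrb4a the leading ones were Lilrb4a-209, with 12777 and 14839 counts, Lilrb4a-206, with 12469 and 15352 counts, and Lilrb4a-214, with 12501 and 5150 counts. Of the bases of Lilrb4a-209, 70.3% lie in introns of Lilrb4a-201, and for Lilrb4a-214 it is 75.6%. Lilrb4a-206 is a short 3′ transcript, with 778 bases inside intron 7 and 496 in the last 2 exons. Of these 3, Lilrb4a-214 differed most between the libraries. In the second quantification Lilrb4a-206 led alone, with 26586 and 43263 counts.

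In Lilr4b the leading transcripts were Lilr4b-206, with 24266 and 15782 counts, and Lilr4b-207, with 15814 and 18632 counts. They hold 77.6% and 66.2% of their bases in introns of Lilr4b-201. Transcripts marked for nonsense-mediated decay took a further 8.01% of counts in replicate 1 and 10.3% in replicate 2.

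Pirb was of another kind. Its leading transcript Pirb-202, with 7037 and 7151 counts, is classed as retained intron for 227 bases of intron 6, which are 7.77% of its length, and the rest lies in exons of the coding transcript. Pirb-205, with 4048 and 2839 counts, keeps 638 intron bases, 19.3% of its length. The coding transcript Pirb-201 had 4072 and 4256 counts. Most bases of the transcripts behind the 75.1% and 73.5% for Pirb are therefore exonic. Clec12a-202, by contrast, with 2044 and 1997 counts, has 80.6% of its bases in introns of Clec12a-201.

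To put exons and introns on 1 scale, the TPM of all transcripts of a gene that hold a base was summed at that base and averaged. Over the exons of Lilrb4a-201 the summed TPM averaged 703 in replicate 1 and 579 in replicate 2, and over its introns 461 and 362, so introns stood at 65.5% and 62.4% of exons. For Lilr4b they stood at 71.4% and 61.1%. The share was 13.4% and 10.3% for Clec12a and 7.41% and 6.92% for Pirb. It was under 1% for Sirpa (0.9495% and 0.424%), Ptpn6 (0.203% and 0.138%), Clec4a2 (0.319% and 0.236%) and Cd300a (0.0305% and 0.0227%). An intron that no annotated transcript keeps gets 0 by construction. Annotated transcripts cover 89.8% of the intron bases of Lilrb4a and 85.1% of those of Lilr4b, but 21.7% for Clec12a, 12.4% for Pirb, and under 4% for the other 4. The low shares of those 4 genes therefore say nothing about unspliced RNA. Those of Clec12a and Pirb are lowered too, by the intron bases that no annotated transcript covers. The shares therefore cannot be compared between genes as amounts of unspliced RNA.

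**Figure D4:**
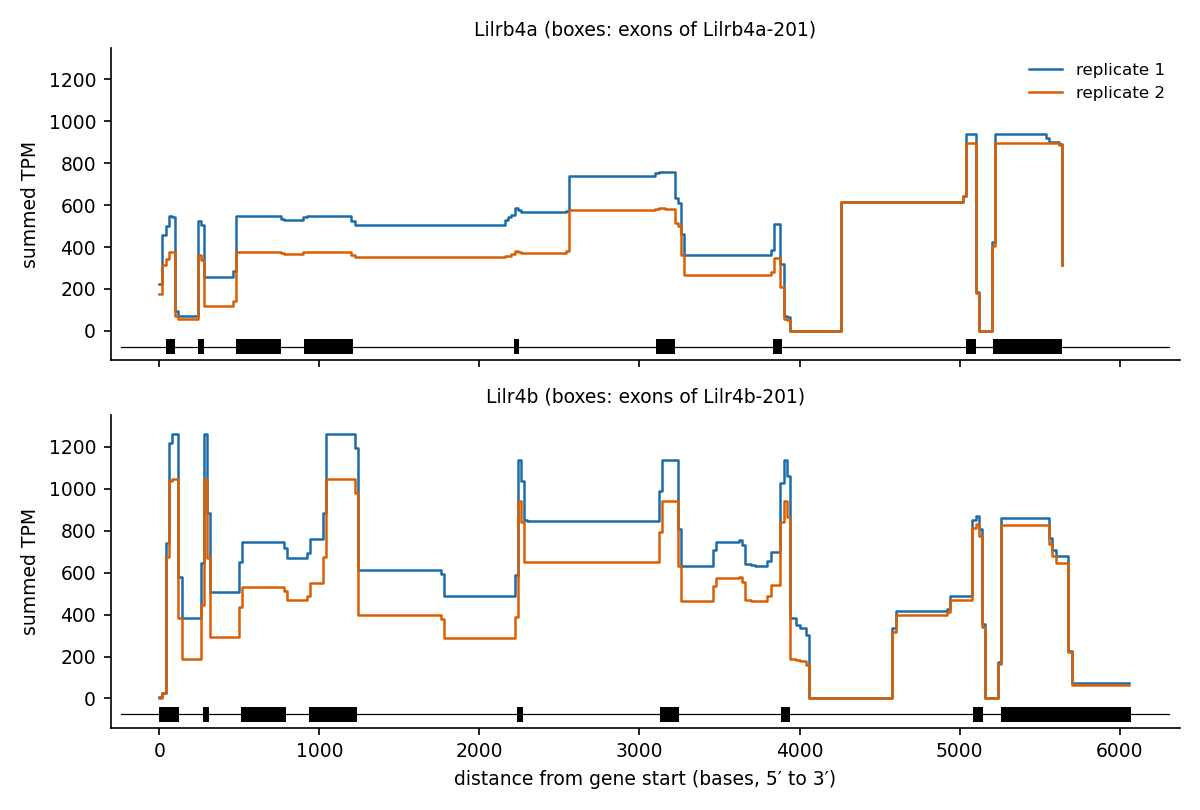
Summed TPM of all annotated transcripts that hold each position (vertical axis), averaged in steps of 20 bases, by distance from the start of Lilrb4a (top) and Lilr4b (bottom), with black boxes for the exons of the named coding transcript. Introns 2 to 6 stay well above 0 in both genes and both libraries, and part of intron 7 and all of intron 8, which no annotated transcript holds, are at 0.

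Single introns differed within each gene. In Lilrb4a, transcripts that hold the whole of intron 3 had 96.5% of the TPM in replicate 1 and 97.9% in replicate 2, out of those that either hold it or splice it out. Intron 5 was held by 96.7% and 97.9%, and intron 4, whose ends are printed above, by 92.0% and 94.0%. With Gm49339 among the splicing transcripts the share for intron 4 was 78.3% in replicate 1 and 72.1% in replicate 2. Intron 2 was the least held of the introns that any transcript keeps whole, at 46.9% and 31.6%. Intron 7, which Lilrb4a-206 keeps only in part, counts as held by none. In Lilr4b intron 3 was the most held, at 89.8% and 88.0%, whereas intron 4 was held by 43.1% and 30.9%. The same nearly identical intron was thus assigned to intron-holding transcripts more often in Lilrb4a than in Lilr4b, in both libraries and with or without Gm49339. In the second quantification intron 4 was held by 92.9% and 95.1% in Lilrb4a and by 47.7% and 38.1% in Lilr4b. With 96.6% identity, reads from its shared stretches can be placed in either gene, and the part this plays was not tested. In Pirb, intron 6 was held by 76.9% and 76.4%.

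**Figure D5:**
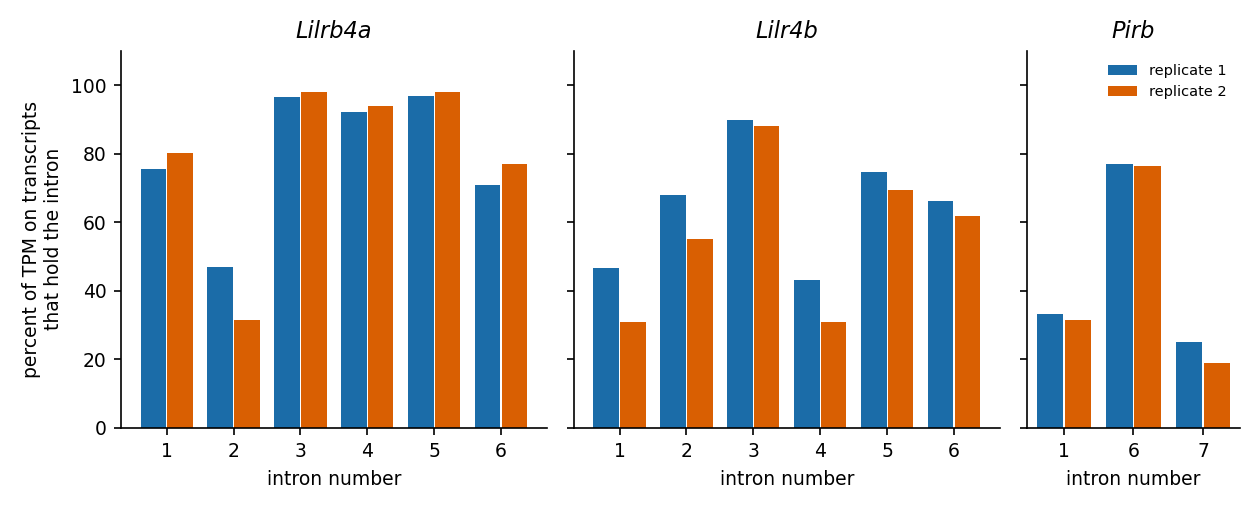
Percent of TPM on transcripts that hold a whole intron, among those that hold it or splice it out. Each intron that at least 1 annotated transcript holds whole is shown for Lilrb4a, Lilr4b and Pirb. The left bar is for replicate 1 and the right bar for replicate 2. In Lilrb4a and Lilr4b intron 3 is high in both libraries, and intron 4 is high in Lilrb4a (92.0% and 94.0%) but not in Lilr4b (43.1% and 30.9%).

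Sirpa varied between libraries in its coding isoforms. Sirpa-214 led in replicate 1, with 12727 counts there and 7643 in replicate 2, and Sirpa-204 led in replicate 2, with 8183 counts in replicate 1 and 15810 in replicate 2. The second quantification gave 20325 and 14186 counts for Sirpa-214 and 3062 and 16708 for Sirpa-204, so the same isoform led in each library. Sirpa-203 had 3125 counts in replicate 1 and 105 in replicate 2. These isoforms share most of their bases, and the replicates of 1 group differed in them far more than in the gene as a whole. The short retained-intron transcript Sirpa-212, of 642 bases, had 4.22% and 2.07% of the counts but 24.5% and 13.2% of the TPM of the gene, since TPM weighs short transcripts up. Cd300a rested on Cd300a-202, with 5707 and 6999 counts, and Ptpn6 on Ptpn6-202, with 1196 and 973 counts.

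Other genes of the system were measured alongside. Of 15 other receptors listed as carrying ITIMs or as related to those that do, 10 reached 1 TPM in both libraries. Their motifs were not checked here. Fcgr2b, the inhibitory Fc receptor, was the most abundant at 282 and 310 TPM, near Pirb. Cd300lf, a neighbour of Cd300a, had 101 and 84.1 TPM, and Cd200r1, the receptor for CD200, had 56.2 and 49.9 TPM. Siglecg was the lowest by its mean, at 0.17 and 0.18 TPM, while in replicate 2 Siglece was lower, at 0.13 TPM. Past 2-fold were Cd33, higher in replicate 2 (log2 ratio 1.22), and Pilra, lower in replicate 2 (-1.03), both named after their values were seen.

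Activating receptors and their adaptors were present too. Of 16 listed, 12 reached 1 TPM in both libraries. Trem2, a lipid-sensing receptor, had 268 and 239 TPM, the C-type lectin gene Clec4d had 224 and 129 TPM, and Fcer1g, which encodes FcR gamma, had 148 and 192 TPM. Trem3 and Lilra5 had 0 counts in both libraries, which allows up to 3 counts, or 0.165 CPM in replicate 1 and 0.161 CPM in replicate 2 (CPM, counts scaled to library size). In this list Cd300ld was over 2-fold higher in replicate 2 (1.44) and Pilrb1 over 2-fold lower (-1.76), again named after their values were seen.

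Close copies of the receptors, where they matched, ranged in the first quantification from well below the receptor to above it. Among 11 of 20 listed copies that matched a gene in the annotation, 7 reached 1 TPM in both libraries. Pira2, an activating partner of Pirb, had 38.0 and 35.3 TPM against 293 and 239 TPM for Pirb, and Lilra6 had 3.33 and 2.96 TPM. Most listed Pira copies did not match, and Gm14548, which shares more words with Pirb, was not listed. The comparison for Pirb therefore rests on Pira2 and Lilra6 alone. In the CD300 family Cd300lf, given above, was higher than Cd300a in both libraries, and Cd300lb had 42.2 and 45.4 TPM. The second quantification had Cd300lf below Cd300a in both libraries, at 41.1 and 69.2 TPM. In the lectin cluster Clec4a1, at 40.0 and 39.6 TPM, and Clec4a3, at 33.4 and 22.9 TPM, were above Clec4a2 itself, while Clec4b1 had 1.70 and 1.44 TPM and Clec4b2 0.05 and 0.04 TPM. The activating relatives of Sirpa were far below it in level. Sirpb1a had 0.29 and 0.51 TPM, Sirpb1b 0.44 and 0.55 TPM and Sirpb1c 1.12 and 0.59 TPM. Sirpb1a was past 2-fold, with a log2 ratio of 1.25 from 7.83 and 19.1 counts. In the second quantification, of these relatives only Sirpb1b reached 1 TPM, at 1.23 TPM in replicate 2.

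Downstream of the ITIM, all 11 listed phosphatases and adaptors reached 1 TPM in both libraries. The adaptor gene Fyb had 404 and 286 TPM, Inpp5d, which encodes SHIP-1, had 149 and 82.4 TPM, and the adaptor gene Skap2 had 97.9 and 82.6 TPM. Inpp5d thus stood above Ptpn6 in both libraries, and Dok3 was the lowest at 8.17 and 4.29 TPM. No gene of this list was past 2-fold. Of its 11 intervals, 7 lay below 0 and none above, against 25.6% of all genes below and 24.5% above, and the median log2 ratio was -0.26, against 0.0030 over all genes. The difference was not tested, and shares of intervals depend on counts, as said above for the 8 genes.

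A further list held 13 genes of ITAM and Src-family kinases and of other proteins in the signalling chain behind them. Of these, 11 reached 1 TPM in both libraries. Syk, the kinase recruited by ITAMs, had 205 and 121 TPM, Lyn, a Src-family kinase that phosphorylates ITIMs, had 76.2 and 61.01 TPM, and Vav1 had 68.7 and 43.3 TPM. Fgr was the lowest by its mean, at 0.27 and 0.50 TPM, while in replicate 2 Src was lower, at 0.47 TPM. None was past 2-fold. Of 13 intervals 9 lay below 0 and 1 above, against the same 25.6% and 24.5% of all genes, and the median log2 ratio was -0.29. The difference was again not tested, and the same limit holds.

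RNA of the receptors' ligands was present in the same libraries. The MHC class I genes H2-K1 and H2-D1, ligands of Pirb, had 1320 and 1159 TPM and 1506 and 874 TPM, close to the gp49 genes. B2m, the light chain of MHC class I, had 333 and 557 TPM and was the 1 listed ligand gene past 2-fold between the libraries, higher in replicate 2 (log2 ratio 1.11). Cd47, the ligand of Sirpa, had 60.9 and 57.8 TPM. Itgav and Itgb3, which encode the integrin bound by gp49B, had 39.8 and 22.4 TPM and 6.10 and 5.37 TPM. Angptl2, a ligand of Pirb, had 10.1 and 10.5 TPM, and Fn1 (fibronectin) had 0.47 and 0.20 TPM. Of the 8 ligand genes listed, 7 reached 1 TPM in both libraries, and Fn1 did not.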

How the data were processed

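Nucleoplasmic RNA of 2 libraries of 1 group was analysed. Per the file headers, the authors deposited, for each library, gene and transcript tables with expected counts, TPM and posterior-mean TPM in RSEM's column layout, and a second transcript table with estimated counts and TPM in kallisto's. The accompanying notes name mm10 and GENCODE M21, while program versions and strand settings are not stated. The genes and lists were chosen with earlier results of these data known, and the text names all 8 genes, the 3 highest and the lowest of each list, and every ligand and copy. Totals were 18194818 and 18667509 counts. Expected counts were rounded, scaled by edgeR 4.0.16 (TMM, R 4.3.3) and compared with a prior count of 0.5 where the mean scaled count was at least 10, with exact binomial 95% intervals. A gene was past 2-fold only with an interval clear of 0. Symbols of copies listed but unmatched in M21 were 9: Pira1, Pira4, Pira5, Pira6, Pira7, Pira11, Pira12, Pira13 and Gp49a. The gene for gp49A was measured as Lilr4b. Likeness of pattern was not computed, since 2 libraries of 1 group give none. Sequences and 31-base words came from the M21 transcripts, whose lengths matched the second table for 141767 of 141767 transcripts, and alignments from Biopython 1.88. Further tools were scipy 1.17.1, pandas 2.3.3, numpy 2.4.6, matplotlib 3.10.9 and Python 3.11.15. Alternatives were DESeq2 1.42.0 size factors, library totals, TPM, posterior means, the second quantification, other minimums and prior counts, and leaving out each replicate. Adding Gm49339 to Lilrb4a was chosen after seeing the data.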

Additional observations from a re-analysis of the deposited data

Results flagged for a closer look

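Gm49339, annotated as a gene that runs from Lilr4b into Lilrb4a, was not among the 8 genes and had 2242 counts in replicate 1 and 3311 counts in replicate 2, far above the 3 counts that a count of 0 allows. Its coding transcripts had 2114 and 3239 of these counts, against 0 and 2.94 counts on the coding transcripts of Lilrb4a itself. In the second quantification it had 2467 and 3676 counts, against 0 and 149.8 counts on the coding transcripts of Lilrb4a. Its log2 ratio of replicate 2 over replicate 1 was 0.62 (interval 0.54 to 0.70), against 0.014 for Lilrb4a, and of its 31-base words 97.5% occurred in another gene, 96.1% in Lilrb4a.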

How the results depend on the processing

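No paired analysis was possible because there is 1 group. All 8 genes reached 1 TPM, and none of the 8 was past 2-fold, under every alternative run for these counts. The median TPM of the 8 was 102 in the second quantification, 722 when TPM was rescaled over protein-coding genes, and 166 to 192 with 1 library left out. The median log2 ratio of the 8 was -0.0084 with DESeq2 size factors, -0.073 with library totals, -0.27 from TPM and -0.0029 in the second quantification, so its sign is not settled. The same holds for Pirb, at -0.064 with totals, -0.29 from TPM and -0.12 in the second quantification, for Lilrb4a, at -0.018 with DESeq2, -0.083 with totals and -0.20 from TPM, and, from TPM only, for Cd300a (-0.011) and Clec4a2 (-0.44). Genes over 2-fold higher in replicate 2 numbered 255 from TPM, 1856 in the second quantification and 146 with a minimum of 100 scaled counts, against 678. Those lower numbered 1507, 1042 and 194, against 571. A higher minimum leaves fewer genes to compare, and for the other settings the cause was not tested. Lilrb4a's share of the pair's counts, 44.9%, was 51.3% of TPM, 49.3% in the second quantification and 46.3% with Gm49339 added, and 44.5% to 45.4% with 1 library left out.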
